A study of Mus musculus with 16 samples.

Results

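The genes described here are 7 genes for osmolyte transporters and other osmotic targets of the transcription factor NFAT5: Slc6a12, Slc5a3, Slc6a6, Slc38a2, Fxyd2, Sgk1 and Pnpla6. They were chosen by gene symbol, with earlier results of these data known. They are 7 of 19937 genes measured on 16 arrays of mouse bone-marrow-derived macrophages, which are immune cells grown in culture from marrow precursors. Each of the 7 was represented by 1 probe set, and all entered the fit without a filter on low values. All cells carried the genetic background 129sv and were either NFAT5 KO or wild type (WT). The 4 groups, with 4 arrays each, were NFAT5 KO with LPS, WT with LPS, unstimulated NFAT5 KO and unstimulated WT. LPS, from the outer membrane of bacteria, activates macrophages through Toll-like receptor 4. The sources used here do not give its dose and duration, the age of the mice or how NFAT5 was deleted. They also do not say whether the 4 arrays of a group stand for 4 mice or cultures, and the p-values then measure a spread between samples that may be technical.

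When the surroundings of a cell become hypertonic, water leaves it, and the cell restores its volume by taking up or making small organic solutes, the osmolytes, that do not disturb proteins. NFAT5, also called TonEBP, is the transcription factor best known for switching on this programme, and it binds a DNA element named the tonicity enhancer (TonE), whose core is TGGAAA. Betaine, myo-inositol, taurine and neutral amino acids are brought in by dedicated transporters, and glycerophosphocholine is made inside the cell from membrane phospholipid. The programme is best known in the kidney medulla, where salt and urea are concentrated. NFAT5 is also present in macrophages, where it is known to take part in responses to Toll-like receptors.

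Promoter windows were searched for TonE on both strands, in sequence from RefSeq (GRCm38.p6), because the genotype comparison concerns the factor that binds this element. Each window ran from 250 bases before to 50 bases after an annotated start, and of the 7 genes 5 had at least 1 window, 16 in all. Slc6a6 and Fxyd2 had no window and were not searched, and neither was sequence outside the windows. The full TonE consensus was found in 2 of the 16 windows, 1 of Slc6a12 and 1 of Pnpla6, and in 4.96% of all 32851 windows of the table. Its TGGAAA core, which every TonE match contains, was found in 5 of the 16, and in 21.4% of all windows. Some windows of Slc6a12 and of Pnpla6 overlap, so the 16 are not separate units. By gene, TonE was found in 2 of the 5 and in 5.74% of all 27025 genes with a window. The core was found in 3 of the 5 and in 23.95% of all genes. Genes with more windows have more chances of a match. The core was present in 2 of 6 windows of Sgk1 and 2 of 3 of Pnpla6, in 1 of 5 of Slc6a12, and in neither the single window of Slc5a3 nor that of Slc38a2. The 2 windows with the full consensus are printed below 5′ to 3′ on the plus strand, with the match in capitals. They are shown because the first belongs to a gene that differed between the genotypes by about 10-fold and the second to a gene whose groups overlapped. In Slc6a12 the match reads TGGAAAACTCC and covers bases -75 to -65 counted from the start. In Pnpla6 it lies on the minus strand, so that the capitals are the reverse complement of TGGAAACTCGT, and it covers bases -168 to -158. A match is only a description of these letters.
Slc6a12, chr6:121342324-121342623: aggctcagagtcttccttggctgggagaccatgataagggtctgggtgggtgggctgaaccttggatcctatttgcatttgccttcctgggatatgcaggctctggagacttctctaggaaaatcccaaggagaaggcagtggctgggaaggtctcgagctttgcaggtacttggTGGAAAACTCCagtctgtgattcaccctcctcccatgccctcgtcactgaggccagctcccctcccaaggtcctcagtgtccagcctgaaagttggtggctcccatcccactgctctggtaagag
Pnpla6, chr8:3515386-3515685: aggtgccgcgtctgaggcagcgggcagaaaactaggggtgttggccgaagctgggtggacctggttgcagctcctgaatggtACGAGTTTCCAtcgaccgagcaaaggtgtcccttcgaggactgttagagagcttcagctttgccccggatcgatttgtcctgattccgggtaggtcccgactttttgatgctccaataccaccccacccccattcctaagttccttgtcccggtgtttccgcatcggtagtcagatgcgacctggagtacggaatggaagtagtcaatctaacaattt

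Values are log2 expression levels after robust multi-array average (RMA), so a difference of 1 is a 2-fold change. A gene was called when its adjusted p was under 0.05 in limma with Benjamini-Hochberg adjustment over all 19937 genes, and every adjusted p below comes from that fit of all 16 arrays unless another setting is named. Of the 7 genes 4 were lower in KO than in WT macrophages with LPS, where 1.26% of all genes were called lower and 1.8% higher. The same 4 were also lower in unstimulated KO cells, where 0.863% of all genes were called lower and 0.14% higher. These 4 were Slc6a12, Slc5a3, Slc38a2 and Fxyd2. Slc6a6, Sgk1 and Pnpla6 were not called in either genotype comparison. The median log2 difference of the 7 genes was -0.82 with LPS, against -0.01 over all genes, and -1.99 without LPS, against 0.00427 over all genes. Because the genes were chosen with earlier results of these data known, the shares and medians over all genes are set beside them only as description. In RNA from whole cultures, fewer cells of a type and less RNA per cell cannot be told apart.

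**Figure D1:**
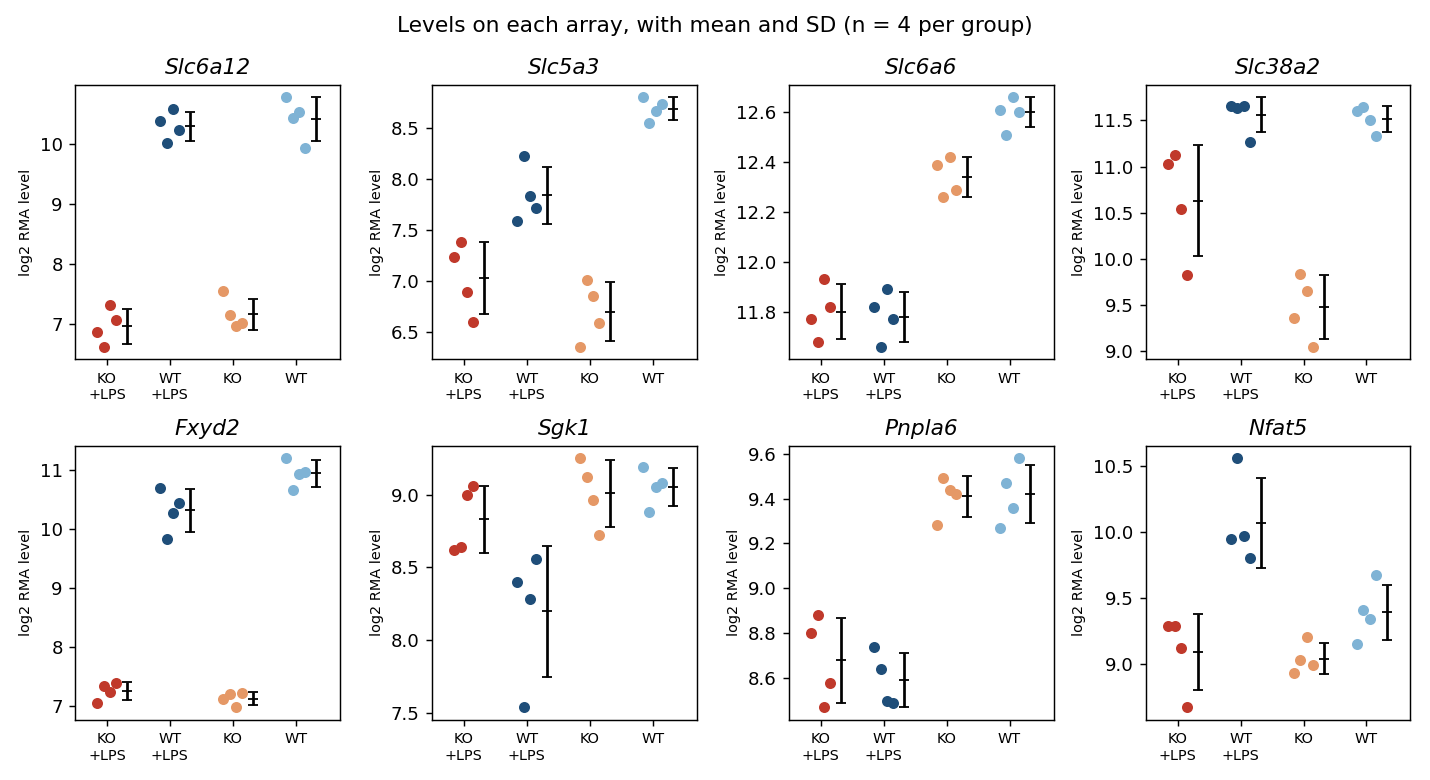
Log2 RMA levels of the 7 genes and Nfat5 on each of the 16 arrays, with KO before WT under LPS and then unstimulated; points are arrays (numbers 1 to 4 from left to right) and bars the mean ± SD of 4. Slc6a12 and Fxyd2 stay between 6.62 and 7.54 in all KO arrays and between 9.84 and 11.21 in all WT arrays, while the Pnpla6 groups separate by LPS and not by genotype.

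Several features of the samples bear on these comparisons. Nfat5 had levels of 9.29, 9.29, 9.12 and 8.67 in KO cells with LPS, against 9.95, 10.56, 9.97 and 9.80 in WT cells with LPS. Without LPS it ranged from 8.93 to 9.20 in KO cells and from 9.15 to 9.67 in WT cells. The log2 difference was -0.98 ± 0.162 with LPS, without overlap (adjusted p = 0.00169), and -0.36 ± 0.162 without LPS, with overlap (adjusted p = 0.602). Where the probes of Nfat5 lie relative to the deletion is unknown here, so these levels do not check the labels. The female transcript Xist lay between 11.71 and 12.50 on 10 arrays, which were all WT arrays and KO array 4 of both treatments, and between 5.67 and 6.29 on the other 6, where the Y-linked Kdm5d lay between 7.36 and 8.46. Genotype and sex therefore largely coincide, and each result was also computed with a sex term and within the 10 arrays. Since all WT arrays had high Xist, the sex term rests on KO array 4 against the other KO arrays. On its own it cannot be told apart from other features of KO array 4. All 7 macrophage markers examined were between 8.51 and 13.75 on every array. Of 32 markers of macrophages and of 6 other cell types, 2 were called between genotypes with LPS in limma and 0 without LPS, where 5 had an unadjusted p under 0.05 and 1, the macrophage receptor gene Fcgr1, was called with the replicate number as a block. The 2 called with LPS were Mertk, a macrophage receptor (0.79 ± 0.16), and Itgax, an integrin of dendritic cells and some macrophages (-1.83 ± 0.427, SE). The mean level of the 5 dendritic markers ranged from 6.91 to 7.39 in KO cells with LPS and from 7.60 to 7.99 in WT cells with LPS, and from 6.68 to 6.81 in unstimulated KO cells and from 6.77 to 7.05 in unstimulated WT cells. Of these 5, Itgax carried most of the gap with LPS, since Flt3 (0.02), Zbtb46 (-0.01), Xcr1 (-0.30) and Ccr7 (-0.35) were not called. The part of these markers in the results was not tested.

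Slc6a12 encodes the betaine transporter BGT1, which brings the osmolyte betaine into the cell together with sodium and chloride. With LPS its level was 6.87, 6.62, 7.31 and 7.06 in KO arrays 1 to 4, against 10.38, 10.02, 10.58 and 10.23 in WT arrays. Without LPS it was 7.54, 7.14, 6.96 and 7.01 in KO arrays, against 10.78, 10.43, 10.53 and 9.94 in WT arrays. Every KO array lay below every WT array by more than 2 units, and the KO arrays with and without LPS overlapped, as did the WT arrays. The log2 difference was -3.34 ± 0.181 with LPS (SE, n = 4 against 4, 10.1-fold lower, adjusted p = 5.75e-09) and -3.26 ± 0.181 without LPS (9.58-fold lower, adjusted p = 8.59e-09). By size this was the 2nd lowest difference of 19937 genes with LPS and the 4th lowest without. LPS itself made no called difference, with -0.20 in KO cells (95% confidence interval -0.58 to 0.18) and -0.12 in WT cells (-0.50 to 0.26). The 2 genotype differences differed by -0.08 ± 0.256, with an interval from -0.62 to 0.46. RMA compresses changes of dim probe sets, and whether the KO level lies above background was not tested, so the fold is not exact.

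Slc5a3 encodes SMIT1, the transporter that carries myo-inositol into the cell with sodium. Under LPS the level was 7.24, 7.38, 6.89 and 6.60 in KO cells, against 7.59, 8.23, 7.83 and 7.72 in WT cells. In unstimulated cells it was 6.36, 7.01, 6.86 and 6.59 in KO cells, against 8.80, 8.55, 8.67 and 8.74 in WT cells. The genotypes did not overlap in either state, and they lay closer together with LPS. Whether the KO levels lie above background was not tested, so the folds and the response of KO cells are not exact. The log2 difference between genotypes was -0.82 ± 0.17 with LPS (adjusted p = 0.0109) and -1.99 ± 0.17 without LPS (3.96-fold lower, adjusted p = 2.21e-06). The difference with LPS was not called without the arrays numbered 4 (-0.71, adjusted p = 0.0618), without WT array 2 with LPS (-0.69, adjusted p = 0.0534), or with a sex term and the replicate number as a block together (-1.05, adjusted p = 0.0544).

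LPS lowered Slc5a3 in WT cells by a log2 change of -0.85 ± 0.17 (adjusted p = 0.000661), and the change was 0.32 ± 0.17 in KO cells (adjusted p = 0.211). The change in KO cells was called in 1 of 27 alternatives, without KO array 4 with LPS (0.47, adjusted p just under 0.05). The KO response exceeded the WT response by 1.17 ± 0.241 (adjusted p = 0.0218), and this was the only difference in response called among the 7 genes, where 0.988% of all genes were called higher and 0.301% lower. It was not called without KO array 1 with LPS (1.10, adjusted p = 0.0534), without the arrays numbered 4 (1.22, adjusted p = 0.0545) or in the 10 arrays with Xist above Kdm5d (0.86, adjusted p = 0.538), which hold 1 KO array per treatment. Slc5a3 lies within the span of Mrps6, which encodes a mitochondrial ribosomal protein and has its own probe set. Mrps6 averaged 8.35 ± 0.30 in KO cells with LPS and 8.69 ± 0.55 in WT cells with LPS, and 7.94 ± 0.15 in unstimulated KO cells and 8.84 ± 0.28 in unstimulated WT cells (SD, n = 4 each). Its log2 differences between genotypes were -0.34 ± 0.215 with LPS and -0.90 ± 0.215 without LPS (adjusted p = 0.701 and 0.055, and 0.00177 without LPS with the replicate number as a block). Whether transcripts shared by both genes reach the Slc5a3 probe set was not tested.

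Slc38a2 encodes SNAT2, a sodium-coupled importer of small neutral amino acids that cells are known to induce both under hypertonic stress and when amino acids run short. With LPS the log2 level was 11.03, 11.13, 10.54 and 9.83 in KO cells, against 11.66, 11.64, 11.66 and 11.27 in WT cells. Without LPS it was 9.36, 9.84, 9.65 and 9.05 in KO cells, against 11.60, 11.65, 11.51 and 11.33 in WT cells. The genotypes did not overlap, KO cells with LPS lay between unstimulated KO cells and WT cells on all but array 4, and array 4 was the lowest of its group in all 4 groups. The log2 difference between genotypes was -0.93 ± 0.222 with LPS (adjusted p = 0.0263) and -2.05 ± 0.222 without LPS (4.13-fold lower, adjusted p = 3.34e-05).

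LPS raised Slc38a2 in KO cells, by 1.16 ± 0.222 (2.23-fold, adjusted p = 0.000563). In WT cells the change was 0.04 ± 0.222, with an interval from -0.43 to 0.50. In the 10 arrays with Xist above Kdm5d the rise in KO cells rested on 1 array per treatment and was not called (0.78, adjusted p = 0.0542). The KO response exceeded the WT response by 1.12 ± 0.314, which was not called (adjusted p = 0.105). It was called with the replicate number as a block (adjusted p = 0.0104), with a sex term (0.0112) and with both (0.00599). It was also called without the arrays numbered 4 (1.22, adjusted p = 0.0249) and without KO array 4 with LPS alone (1.39, adjusted p = 0.0101). The block gives same-numbered arrays of all 4 groups a shared term, although numbers were not taken to pair LPS-treated with unstimulated arrays. The genotype difference with LPS was -1.54 with a sex term (adjusted p = 0.000438) and -0.66 without KO array 4 (adjusted p = 0.054), and it was not called in a fit of only the 8 arrays with LPS (adjusted p = 0.0853). It was also not called without KO array 3 or without WT array 1, 2 or 3 with LPS (-0.90 to -0.89, adjusted p = 0.067 to 0.0888).

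Slc6a6 encodes the taurine transporter TauT. Under LPS its level was 11.77, 11.68, 11.93 and 11.82 in KO cells, against 11.82, 11.66, 11.89 and 11.77 in WT cells, and these groups overlapped throughout. Unstimulated arrays had 12.39, 12.26, 12.42 and 12.29 in KO cells, against 12.61, 12.51, 12.66 and 12.60 in WT cells, so KO cells were the lower ones without overlap, but by a small amount. The log2 difference between genotypes was 0.01 ± 0.0824 with LPS (interval -0.16 to 0.19) and -0.26 ± 0.0824 without LPS (interval -0.43 to -0.08, adjusted p = 0.255). LPS lowered Slc6a6 in both genotypes, by a log2 change of -0.54 ± 0.0824 in KO cells (adjusted p = 4.82e-05, and 0.123 in the 10 arrays with Xist above Kdm5d) and of -0.81 ± 0.0824 in WT cells (adjusted p = 2.94e-07). The responses differed by 0.27 ± 0.117 (adjusted p = 0.416).

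**Figure D2:**
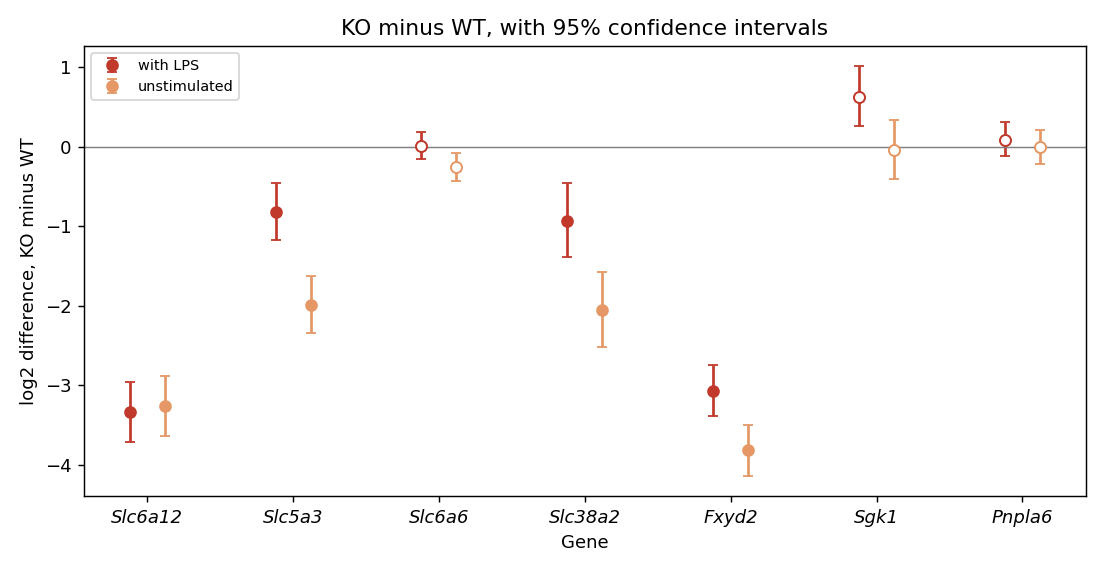
Log2 difference between KO and WT for each gene, with LPS and unstimulated, with 95% confidence intervals from limma; filled points passed an adjusted p of 0.05 and open points did not. Slc6a12 and Fxyd2 are below -3 in both states, whereas Slc5a3 and Slc38a2 are near -2 unstimulated and at -0.82 and -0.93 with LPS.

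Fxyd2 encodes the gamma subunit associated with the sodium pump, a small membrane protein that adjusts the pump's affinity for its ions and is best known from kidney tubules. The level with LPS was 7.04, 7.33, 7.23 and 7.38 in KO cells, against 10.71, 9.84, 10.27 and 10.45 in WT cells. In unstimulated cells it was 7.12, 7.20, 6.97 and 7.21 in KO cells, against 11.21, 10.66, 10.94 and 10.98 in WT cells. All 8 KO arrays lay between 6.97 and 7.38, below every WT array. The log2 difference was -3.07 ± 0.152 with LPS (8.41-fold lower, adjusted p = 2.34e-09) and -3.82 ± 0.152 without LPS (14.1-fold lower, adjusted p = 5.58e-11), and by size both were the 3rd lowest of 19937. As for Slc6a12, whether the KO level lies above background was not tested and the fold is not exact. LPS lowered Fxyd2 in WT cells by a log2 change of -0.63 ± 0.152 (adjusted p = 0.00322), with 0.12 ± 0.152 in KO cells (adjusted p = 0.684). The difference in response was 0.75 ± 0.215 (adjusted p = 0.113), and it was called only without WT array 1 with LPS (0.88, adjusted p = 0.0421) among the alternatives run.

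Sgk1 encodes a serum- and glucocorticoid-regulated kinase that acts on ion channels and transporters and is known to be induced by hypertonicity. With LPS its level was 8.62, 8.64, 9.0 and 9.06 in KO cells, against 8.40, 7.54, 8.28 and 8.56 in WT cells. Without LPS it was 9.25, 9.12, 8.96 and 8.72 in KO cells, against 9.19, 8.88, 9.05 and 9.08 in WT cells. Unstimulated genotypes overlapped, and with LPS every KO array lay above every WT array. LPS lowered Sgk1 in WT cells by a log2 change of -0.85 ± 0.178 (adjusted p = 0.000962), and the change was -0.18 ± 0.178 in KO cells (adjusted p = 0.586). The genotypes differed by 0.63 ± 0.178 with LPS (adjusted p = 0.0665), which was called with the replicate number as a block (adjusted p = 0.0362), with the block in a fit of only the 8 arrays with LPS (0.03), with dim genes left out of the test (0.0457) and without WT array 4 with LPS (0.75, adjusted p = 0.0305). It was 0.41 without WT array 2 with LPS (adjusted p = 0.219), the lowest array of its group, and 0.40 with a sex term and the block (adjusted p = 0.549). Without LPS they differed by -0.04 ± 0.178. The difference in response was 0.67 ± 0.252 (adjusted p = 0.293).

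Pnpla6 encodes neuropathy target esterase, a phospholipase that releases the osmolyte glycerophosphocholine from phosphatidylcholine. Under LPS Pnpla6 was at 8.80, 8.88, 8.47 and 8.58 in KO cells, against 8.74, 8.64, 8.5 and 8.49 in WT cells. Unstimulated levels were 9.28, 9.49, 9.44 and 9.42 in KO cells, against 9.27, 9.47, 9.36 and 9.58 in WT cells. The genotypes overlapped in both states, while every array with LPS lay below every unstimulated array. LPS lowered Pnpla6 by a log2 change of -0.73 ± 0.103 in KO cells (adjusted p = 2.25e-05) and of -0.83 ± 0.103 in WT cells (adjusted p = 3.76e-06). The genotype difference was 0.09 ± 0.103 with LPS (interval -0.12 to 0.31) and -0.01 ± 0.103 without LPS (interval -0.22 to 0.21), and the difference in response was 0.10 ± 0.145. The Pnpla6 window printed above holds a TonE match in a gene whose level was not called different between the genotypes.

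Across the 7 genes, LPS lowered 5 in WT cells (Slc5a3, Slc6a6, Fxyd2, Sgk1 and Pnpla6), by log2 changes of -0.85 to -0.63, where 16.8% of all genes were called lower and 14% higher. In KO cells it lowered 2 (Slc6a6 and Pnpla6) and raised 1 (Slc38a2), where 12.7% of all genes were called lower and 12% higher. The LPS comparison within WT cells and the unstimulated genotype comparison share the 4 unstimulated WT arrays, so their values are not independent. The order of the groups also differed between the genes. For Slc6a12 and Fxyd2 both WT groups lay above both KO groups. For Slc5a3, WT cells with LPS lay between unstimulated WT cells above and both KO groups below, and the 2 KO groups overlapped. For Slc38a2 the WT groups overlapped at the top, KO cells with LPS came next, and unstimulated KO cells were lowest, overlapping KO cells with LPS only through their array 4.

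**Figure D3:**
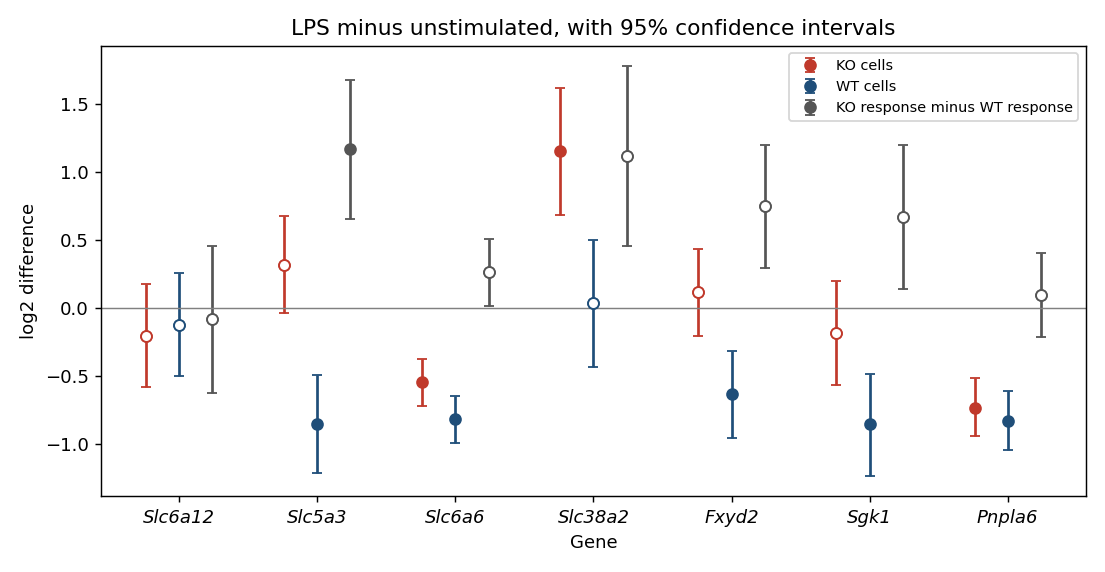
Log2 difference between LPS-treated and unstimulated cells for each gene in KO and in WT cells, and the KO response minus the WT response, with 95% confidence intervals from limma; filled points passed an adjusted p of 0.05. Slc38a2 is the 1 gene that rose in KO cells (1.16), and the difference in response is filled only for Slc5a3 (1.17).

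For the 4 lower genes the KO and WT arrays did not overlap in either state. Each same-numbered pair therefore had to be lower in KO cells, which adds no support, and only the sizes are described. For Slc6a12 the paired log2 differences ranged from -3.51 to -3.17 with LPS and from -3.57 to -2.93 without LPS, and for Fxyd2 from -3.67 to -2.51 and from -4.09 to -3.46. For Slc5a3 they ranged from -1.12 to -0.35 and from -2.44 to -1.54, and for Slc38a2 from -1.45 to -0.50 and from -2.28 to -1.80. In the 10 arrays with Xist above Kdm5d the log2 differences with and without LPS were -3.24 and -3.41 for Slc6a12, -1.24 and -2.10 for Slc5a3, -1.73 and -2.48 for Slc38a2 and -2.93 and -3.74 for Fxyd2. All 8 values were called (adjusted p = 0.000137 to 0.0296), although this fit holds 1 KO array per treatment, whose spread is taken from the other groups.

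The expression profiles nearest to those of the members were looked up among 17891 other protein-coding genes, for the 4 genes whose group means spanned at least 1 unit. Nearness was the root mean square difference between mean-centred log2 levels over the 16 arrays. Slc6a12 and Fxyd2 were each other's nearest gene, at 0.355, against a spread of 1.67 and 1.75 of each about its own mean. Next to Slc6a12 came H2-Aa (0.861), which encodes a chain of an MHC class II molecule, and Ifitm6 (0.872), an interferon-induced transmembrane protein family gene, and next to Fxyd2 came the same 2 in the other order (0.915 and 0.849). Nearest to Slc5a3 were Slco4a1, an organic anion transporter (0.318), Ndrg2 (0.389) and Plcb4, a phospholipase C (0.399), against its own spread of 0.806. Nearest to Slc38a2 were the MHC class II gene H2-Ab1 (0.378), Tmem38b, an intracellular cation channel (0.444), and H2-Eb1 (0.451), against its own spread of 0.906. These are descriptions over arrays that share 4 groups.

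Related genes were examined in 6 lists with 54 measured genes. In unstimulated cells 0 of the 54 were called between genotypes in limma, where 0.14% of all genes were called higher and 0.863% lower. Shares this low leave little room for a call among 54 genes. At an unadjusted p under 0.05, 4 were higher and 3 lower, and 1 was called with the replicate number as a block. That 1 was S100a4, a calcium-binding protein (-1.0 ± 0.254, adjusted p = 0.0782, and 3.51e-05 with the block). It was called in 5 of 27 alternatives, of which 2 had no block, those without the arrays numbered 4 (0.0367) and without KO array 4 with LPS (0.0417). With a sex term its difference was -0.49 (adjusted p = 0.369), and with a sex term and the block together it was -0.92 (adjusted p = 0.0236). The median log2 difference of the 54 was 0.01. With LPS and the block, 3 were higher and 3 lower in KO cells, and S100a4 was among the lower (-0.44, adjusted p = 0.0206). With LPS, S100a4 was called in 2 of 27 alternatives, each with a block. Its difference was 0.08 with a sex term and 0.20 in the 10 arrays with Xist above Kdm5d. Without the block 3 were higher and 2 lower with LPS, and the median was -0.05. Of all genes 1.8% were called higher and 1.26% lower there. Of these 5 calls without the block, 4 (Slc38a1, Atp1b3, Nedd4l and Pnpla7) were lost with a sex term, and all 5 were lost in the 10 arrays with Xist above Kdm5d, which hold 1 KO array with LPS. The difference in response was called for 0 of the 54 in limma, where 0.988% of all genes were called higher and 0.301% lower. At an unadjusted p under 0.05, 3 were higher and 4 lower, and 0 were called with the block.

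Among the 10 measured related carriers, all but Slc2a13 of the same families as the members, 1 was higher in KO cells with LPS. This was Slc38a1, a glutamine transporter (0.72 ± 0.176, adjusted p = 0.0312). It was called in 16 of 27 alternatives and was 0.30 with a sex term (adjusted p = 0.386) and 0.16 in the 10 arrays (0.712). The call was also lost when all probe sets of a gene were averaged (0.58, adjusted p = 0.118). In the 8 arrays compared it was lost without and with the block (0.102 and 0.0609). Single arrays whose loss ended the call were KO arrays 1 and 2 and WT arrays 1, 2 and 4 with LPS (0.55 to 0.72, adjusted p = 0.0592 to 0.12). Slc38a1 was lowered by LPS, by a log2 change of -0.74 in KO cells and of -1.29 in WT cells, whereas its relative Slc38a2 rose in KO cells. The creatine transporter Slc6a8 also fell with LPS in both genotypes (-1.12 in KO and -0.82 in WT cells), and the glycine transporter Slc6a9 rose in both (0.57 and 1.0). Among 10 genes of osmolyte synthesis and breakdown, 2 fell with LPS in KO cells and 3 in WT cells. Of all genes 12.7% were called lower with LPS in KO cells and 16.8% in WT cells. Gdpd5, which breaks down glycerophosphocholine, had log2 changes of -1.21 in KO cells and -1.16 in WT cells. Csad, which acts in taurine synthesis, had -0.54 and -0.71, and Aldh7a1, which makes betaine from its aldehyde, was called in WT cells (-0.53, adjusted p = 0.0442).

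**Figure D4:**
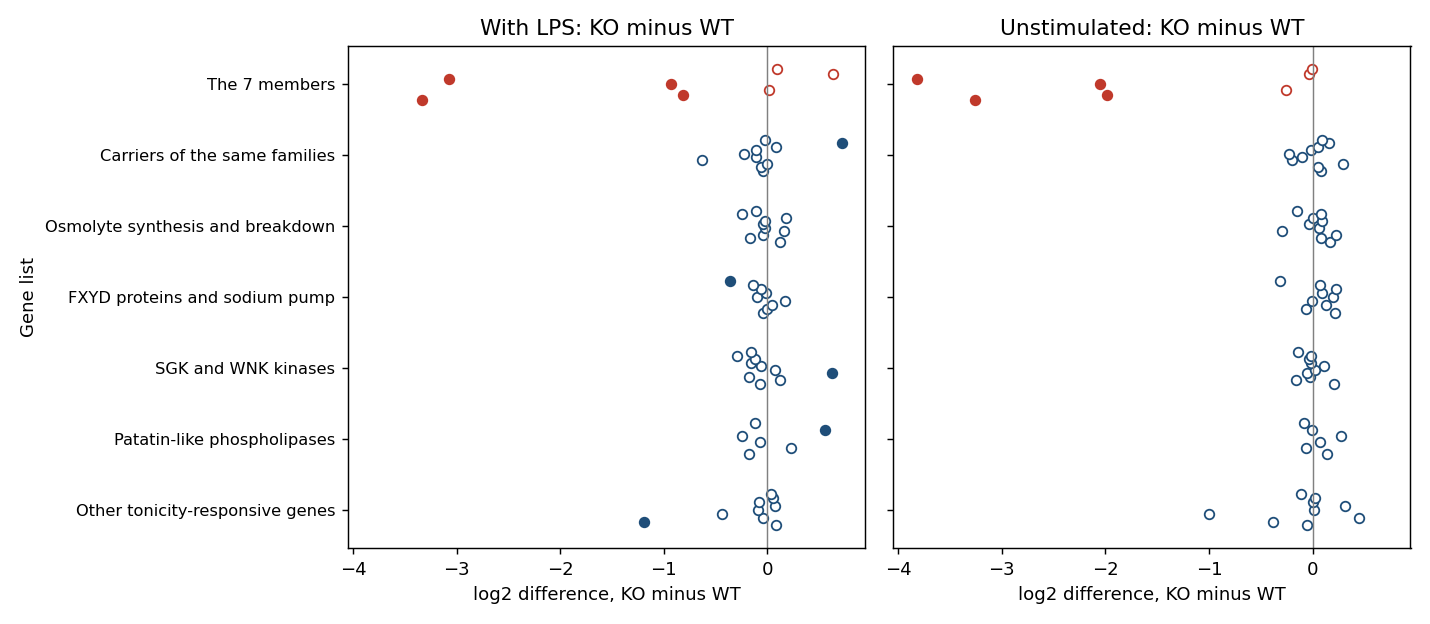
Log2 difference between KO and WT for the 7 genes and the 6 lists of related genes, with LPS on the left and unstimulated on the right; each point is a gene, filled where the adjusted p was under 0.05. The 4 filled points of the 7 genes lie between -3.82 and -0.82. On the right none of the 54 list genes is filled in limma (S100a4, at -1.0, had an adjusted p of 0.0782). Over all genes 0.14% were called higher and 0.863% lower without LPS.

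Of 9 FXYD and sodium pump genes, 1 was lower in KO cells with LPS, the pump beta subunit Atp1b3 (-0.36 ± 0.0824, adjusted p = 0.0209). It was called in 18 of 27 alternatives and was -0.34 with a sex term (adjusted p = 0.0954) and -0.41 in the 10 arrays (0.195). The call was also lost with median centring (0.0512), without the arrays numbered 4 (0.0709), and without KO array 2 or 4 or WT array 1 or 2 with LPS (-0.37 to -0.32, adjusted p = 0.0525 to 0.0744). Atp1b3 rose with LPS in both genotypes (0.35 in KO and 0.39 in WT cells), whereas Fxyd5 fell in both (-0.34 and -0.51). The other measured FXYD genes were not called in either genotype comparison. Of 10 SGK and WNK kinases and partners, 1 was higher in KO cells with LPS, Nedd4l, a ubiquitin ligase that SGK1 is known to phosphorylate (0.62 ± 0.138, adjusted p = 0.0163). The Nedd4l difference was called in 21 of 27 alternatives and was 0.49 with a sex term (adjusted p = 0.135), 0.23 with sex term and block (0.654) and 0.59 in the 10 arrays (0.283). The call was also lost without KO array 1 or 2 or WT array 2 with LPS (0.50 to 0.61, adjusted p = 0.0508 to 0.0764). Nedd4l fell with LPS, with log2 changes of -0.74 in KO cells and -1.41 in WT cells. Sgk3, a relative of Sgk1, rose with LPS instead (0.83 in KO and 0.55 in WT cells), as did the WNK substrate kinase Oxsr1 (0.53 and 0.54), and Wnk1 fell (-0.40 and -0.45).

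Of 6 further patatin-like phospholipase genes, Pnpla7, a close relative of Pnpla6, was higher in KO cells with LPS (0.55 ± 0.138, adjusted p = 0.0341). This was called in 16 of 27 alternatives and was 0.46 with a sex term (adjusted p = 0.171) and 0.40 in the 10 arrays (0.509). The call was also lost in the 8 arrays compared (adjusted p = 0.0805) and without the arrays numbered 4 (0.0709). It was lost as well without KO array 1, 2 or 3 or WT array 1, 2 or 4 with LPS (0.45 to 0.57, adjusted p = 0.0532 to 0.159). LPS lowered Pnpla7 in both genotypes, with log2 changes of -1.90 in KO cells and -2.46 in WT cells, and lowered the triglyceride lipase gene Pnpla2 in WT cells (-0.55, adjusted p = 0.00316). Pnpla7 levels of KO and WT cells with LPS overlapped. Of 9 other genes known to respond to tonicity, 1 was lower in KO cells with LPS, the heat shock gene Hspa1a (-1.19 ± 0.184, adjusted p = 0.000962). It was called in 26 of 27 alternatives, the exception being the 10 arrays (-1.26, adjusted p = 0.071). Hspa1a rose with LPS by 1.0 in KO cells and by 1.81 in WT cells, and its near-identical copy Hspa1b may share its probes. Hspb1, a small heat shock protein, differed between genotypes by 0.44 ± 0.167 without LPS (adjusted p = 0.432).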

How the data were processed

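Total RNA of 16 macrophage samples was labelled with biotin for 1-channel Affymetrix arrays. The deposited values are log2 levels per probe set from RMA, as the submitters' processing notes name it (its version is not given). RMA normalises arrays to a common distribution and compresses changes of dim genes. Array medians lay between 6.76 and 6.86. Array number limits precision. GEO's platform annotation named 1 gene for 21640 of 34760 probe sets and several for 1321, and 11799 are unnamed here. Gene identifiers of 21553 matched the RefSeq table of GRCm38.p6, which changed 0 symbols. The brightest probe set over the 16 arrays stood for each of the 19937 genes.

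Groups and replicate numbers came from titles. One linear model of the 16 arrays (limma 3.58.1, R 4.3.3; lmFit and eBayes) gave the 5 contrasts with 12 residual degrees of freedom, after testing on simulated data. Same-numbered KO and WT arrays deviated together from their group means (r = 0.19 to 0.52 with LPS, 0.16 to 0.44 without). All were over the minimum of 0.1, so numbers were taken to pair these arrays, although KO array 1 with LPS matched WT array 2 best. The main fit did not use this pairing, and the replicate block was an alternative. For LPS against unstimulated, r was -0.06 to 0.56 in KO and 0.05 to 0.43 in WT cells. The lowest were under the minimum and the numbers were not taken as pairs, although WT arrays 2, 3 and 4 matched their own number best. In fits of all 16 arrays the replicate block still gave same-numbered arrays of all 4 groups a shared term. No arrays of a group were duplicates (SD of their differences over genes, 0.172 to 0.381).

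Members and gene lists were chosen with earlier results of these data known. Named genes were the 7 members and Nfat5, up to 4 called genes per list and contrast (otherwise the 2 with the smallest p), and the 3 nearest profiles. Some were left out for length. Mrps6 and the markers Mertk, Fcgr1 and the 5 dendritic genes were named after their values were seen. Alternatives were median centring, leaving out dim genes (11833 kept), averaging probe sets, the replicate block, the 8 arrays compared, a variance trend, a sex term, arrays with Xist above Kdm5d, no arrays numbered 4, and each array left out. Combining the block with the 8 arrays or the sex term was added after seeing the data.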

Additional observations from a re-analysis of the deposited data

Results flagged for a closer look

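The difference of the 2 genotypes in their response to LPS was called for Slc5a3. The KO response minus the WT response was 1.17 ± 0.241 on the log2 scale (SE, limma adjusted p = 0.0218). Levels with and without LPS overlapped in KO cells and did not overlap in WT cells. Whether the KO levels lie above background, so that a fall there could be seen, was not tested. Over 25 alternatives this difference ranged from 0.86 to 1.31, with adjusted p from 0.01 to 0.538, and it was called in 22 of them.

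In WT cells with LPS, Slc38a2 on array 4 (11.27) lay below the other 3 arrays, which were close together, between 11.64 and 11.66. Array 4 was the lowest for Slc38a2 in all 4 groups. The gap was 0.931 of the range of the group. Of 32 groups of 4 arrays tested in this way, 1 stood out, and chance alone flags about 5% of groups.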

How the results depend on the processing

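Each of 5 contrasts of the 7 genes was recomputed under 27 alternatives where these applied, which gave 931 values. Of these, 884 kept their direction and their side of the threshold. Slc6a12, Slc5a3, Slc38a2 and Fxyd2 in unstimulated cells, and Slc6a12 and Fxyd2 with LPS, were called lower in KO cells under all 27. The replicate block changed 2 member calls, Sgk1 with LPS (adjusted p = 0.0362) and the Slc38a2 difference in response (0.0104). For the latter the block also ties LPS-treated to unstimulated arrays, which were not taken as pairs. Among the limits on small differences are the number of arrays, signal over background, and sex, which largely coincides with genotype. The cause of the changes below was not tested.

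The number of members called for the difference in response was 1, and it was 2 with the replicate block, 2 with the sex term, 2 with both, 0 in the 10 arrays with Xist above Kdm5d (in limma, where 1 KO array per treatment remains), and 0 to 2 when single arrays were left out. Without the arrays numbered 4 it was 1, Slc38a2 in place of Slc5a3. For genotype with LPS it was 4, and 2 (without WT array 2) to 5 (without WT array 4) when single arrays with LPS were left out. For LPS in KO cells it was 3, and 1 in the 10 arrays. Without KO array 4 with LPS, Slc5a3 was called as well for LPS in KO cells (0.47). Of 798 counts of called genes in the 6 lists, 64 moved, which means a change of over 1.5 times or any change to or from 0. Counts over all genes moved as well: 28 higher and 172 lower between unstimulated genotypes became 71 and 256 with the replicate block, 156 and 203 with the sex term, 11 and 80 in the 8 arrays compared and 11 and 47 in the 10 arrays. With LPS, 358 higher and 251 lower became 569 and 381 with the block and 32 and 57 in the 10 arrays. For the difference in response, 197 and 60 became 340 and 111 with the block and 2 and 2 in the 10 arrays.

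The sign turned for the following values, none of which was called in the fit of all 16 arrays. Between unstimulated genotypes, Sgk1 (-0.04) was 0.07 without the arrays numbered 4 and -0.12 to 0.06 when single arrays were left out, and Pnpla6 (-0.01) was 0.01 in the 10 arrays, 0.04 without the arrays numbered 4, and -0.06 to 0.04. With LPS, Slc6a6 (0.01) was -0.0013 with the sex term and -0.03 to 0.05, and Pnpla6 (0.09) was -0.01 in the 10 arrays. For LPS in WT cells, leaving out single arrays gave -0.28 to 0.0016 for Slc6a12, -0.03 to 0.13 for Slc38a2 and -0.33 to 0.09 for Mrps6. For LPS in KO cells, the 10 arrays gave 0.06 for Slc6a12, 0.34 for Sgk1 and -0.32 for Nfat5, and single arrays left out gave -0.01 to 0.19 for Nfat5. The difference in response of Slc6a12 was 0.17 in the 10 arrays and -0.20 to 0.08, and that of Pnpla6 was -0.01 in the 10 arrays.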
